A study of Mus musculus with 4 samples.

Results

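Effector genes of cytotoxic and innate-like lymphocytes were followed through the mouse thymus: Nkg7, Gzma, Ctsw, Klrd1, Ccl5, Xcl1, Cd7, Cxcr3, Dapl1 and Plac8. They were chosen by symbol, 10 of the 32285 genes in the count matrices, and were read in double-positive cells under selection (DPsel), in CD4 and CD8 single-positive cells (CD4SP and CD8SP) and in γδ T cells, and in these classes across genotype. Single thymocytes were captured in droplets with the 10x Genomics 3′ kit (version 3) and sequenced as 4 libraries. The 2 control libraries came from mice with the genotype Tox4;F/F, in which loxP sites flank exons of Tox4, and the 2 conditional knockout (cKO) libraries from mice with Tox4;F/F;Lck+, which carry the same floxed alleles and a Cre transgene under the promoter of the T cell gene Lck. Per the study's methods the floxed line was made on the C57BL/6 background and the mice were young adult, gender-matched littermates. Lck-Cre acts in developing T cells, and no separate Cre targeted γδ or NK-type cells.

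Cytotoxic lymphocytes carry granules of proteases such as granzymes, which they release onto a target cell, and they guide other cells with chemokines. In the thymus these genes are known from NK cells, from innate-like T cells and from maturing CD8 cells, which take up parts of the program before they meet antigen. αβ thymocytes pass from double-negative (DN) cells through dividing DP blasts (DPbla) and resting DP cells that rearrange their receptor (DPre) to DPsel, CD4SP and CD8SP. γδ T cells leave this path at the DN stage.

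The 4 libraries held 57354 deposited cells, with 42716798 to 62007453 UMIs (unique molecular identifiers, each 1 captured transcript) per library, and 5648 to 12027 cells per library were kept. Control 1 and cKO 1 lost 48.3% and 46.1% of their cells to the limit on mitochondrial UMIs, against 20.6% of control 2 and 23.1% of cKO 2. Between 36 and 70 cell barcodes were shared by any pair of libraries. Per 1000000 UMIs, Tox4 had 68.9 and 73.4 in control against 54.9 and 62.2 in cKO, but 3′ tags lie outside the floxed exons and do not check the deletion. Nothing in the labels gives a batch.

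The classes were rebuilt from the counts and named by marker lists, so that each name stands for a CD8SP-like, γδ-like or other class that need not match the study's own clusters. The 10 genes were left out of the clustering. DPsel held 5461 cells in 3 clusters, CD4SP 1836, CD8SP 671 and γδ 82, of which 15, 15, 24 and 28 came from control 1, control 2, cKO 1 and cKO 2. Per 1000000 UMIs, CD8SP cells had 926 to 1211 of Cd8b1 and 59.5 to 69.6 of Cd4. The coreceptors did not set the CD4SP class apart: it had 225 to 279 of Cd4, within the 237 to 294 of DPsel but for control 2, and 220 to 330 of Cd8b1, which exceeded Cd4 in 3 of 4 libraries. It took its name from its marker list as a whole, whose 10 genes summed to 2575 to 2841 against 1845 to 2307 in CD8SP and 897 to 1065 in DPsel, although the CD8SP list summed to 2383 to 2458 in it (3404 to 3670 in CD8SP), and from Zbtb7b, the factor of the CD4 lineage, at 54.8 to 65.2 against at most 11 in CD8SP. In γδ cells Trdc stood at 1367 to 1971, and the NKT and NK genes Zbtb16, Klrb1c and Ncr1 were at 0 in all 4 libraries. A further 170 cells, called NK/NKT here because markers of both types led them, had 34 to 55 cells per library and served as a comparison, since among the αβ, γδ and NK/NKT classes 7 of the 10 members were highest there (not Gzma, Plac8 and Dapl1).

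Levels are UMIs of a gene per 1000000 UMIs of the class in that library (CPM), given in the order control 1, control 2, cKO 1 and cKO 2. A 3′ count is 1 per molecule whatever the gene's length. Whether different genes are captured equally well was not tested, so levels of different genes compare only roughly. Fold changes set cKO against control as log2 values, from edgeR's quasi-likelihood test on the summed counts. Their standard error (SE) was derived as the size of the log2 value divided by the square root of the test's F statistic. A gene is called when its p, adjusted by Benjamini-Hochberg over all genes tested in the class, is under 0.05. With 2 libraries a group these p-values measure the spread between these mice alone. A filter on low counts left 8 members tested in DPsel (not Klrd1 and Cxcr3), 8 in CD4SP (not Xcl1 and Cxcr3), 8 in CD8SP (not Ccl5 and Cxcr3) and 4 in γδ (Nkg7, Gzma, Ctsw and Plac8).

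The members sit on 9 chromosomes (GRCm38, all protein-coding). The granule genes are Nkg7 (chr7:43437073-43438249, plus strand), a membrane protein of cytotoxic granules, Gzma (chr13:113093825-113100981, minus strand), the serine protease granzyme A, and Ctsw (chr19:5465043-5468507, minus strand), the cysteine protease cathepsin W. The receptors are Klrd1 (chr6:129591782-129598775, plus strand), the CD94 chain that pairs with NKG2 proteins, Cd7 (chr11:121036747-121039418, minus strand), an immunoglobulin-family surface protein of T and NK cells, and Cxcr3 (chrX:101731535-101734269, minus strand), a receptor for interferon-induced chemokines. The chemokines are Ccl5 (chr11:83525778-83530518, minus strand) and Xcl1 (chr1:164931644-164935527, minus strand), which draws cross-presenting dendritic cells. Dapl1 (chr2:59484653-59505020, plus strand) and Plac8 (chr5:100553725-100572245, minus strand), a small cysteine-rich protein, complete the list.

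Gzma and Plac8 are the members whose level differed most often by genotype, and their upstream sequences are shown for that reason, as reference sequence from RefSeq on GRCm38.p6, 5′ to 3′ on the gene's own minus strand, ending at the base before the annotated transcript. Capitals mark matches to a RUNX motif (TGTGGT, here read as its reverse complement ACCACA) and a T-box motif (AGGTGTG). Both motifs are those of factor families known from cytotoxic lymphocytes.

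Gzma, chr13:113100982-113101231: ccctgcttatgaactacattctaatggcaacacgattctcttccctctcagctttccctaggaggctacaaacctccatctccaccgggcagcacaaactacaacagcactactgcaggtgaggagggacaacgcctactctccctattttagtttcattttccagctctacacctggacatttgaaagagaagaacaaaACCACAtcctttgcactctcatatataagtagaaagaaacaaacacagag
Plac8, chr5:100572246-100572455: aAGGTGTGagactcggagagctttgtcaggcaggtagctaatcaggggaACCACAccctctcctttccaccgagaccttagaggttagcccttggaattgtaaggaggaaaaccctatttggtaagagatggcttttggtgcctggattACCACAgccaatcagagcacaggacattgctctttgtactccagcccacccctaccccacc

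The Gzma stretch held 1 RUNX match, 50 bases before the start site. The Plac8 stretch held 3 matches, the T-box letters at -249 and RUNX letters at -201 and -101. These positions count from the RefSeq start site, which for Plac8 lies downstream of the end of the printed stretch, inside the gene as annotated by GENCODE, and for Gzma directly after it. Of the 10 members, 6 had a promoter window in the table, with 7 windows between them, and 5 of the 7 windows held the RUNX letters on either strand, as did 16.8% of all 32851 windows. The T-box letters stood in the windows of Nkg7 and Plac8 (5.84% of all windows), an E protein motif (CAGCTG) in a further Plac8 window (16.3%), and an ETS motif (CCGGAAG) in none (8.86%). A match is a run of letters and not a bound site.

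**Figure D1:**
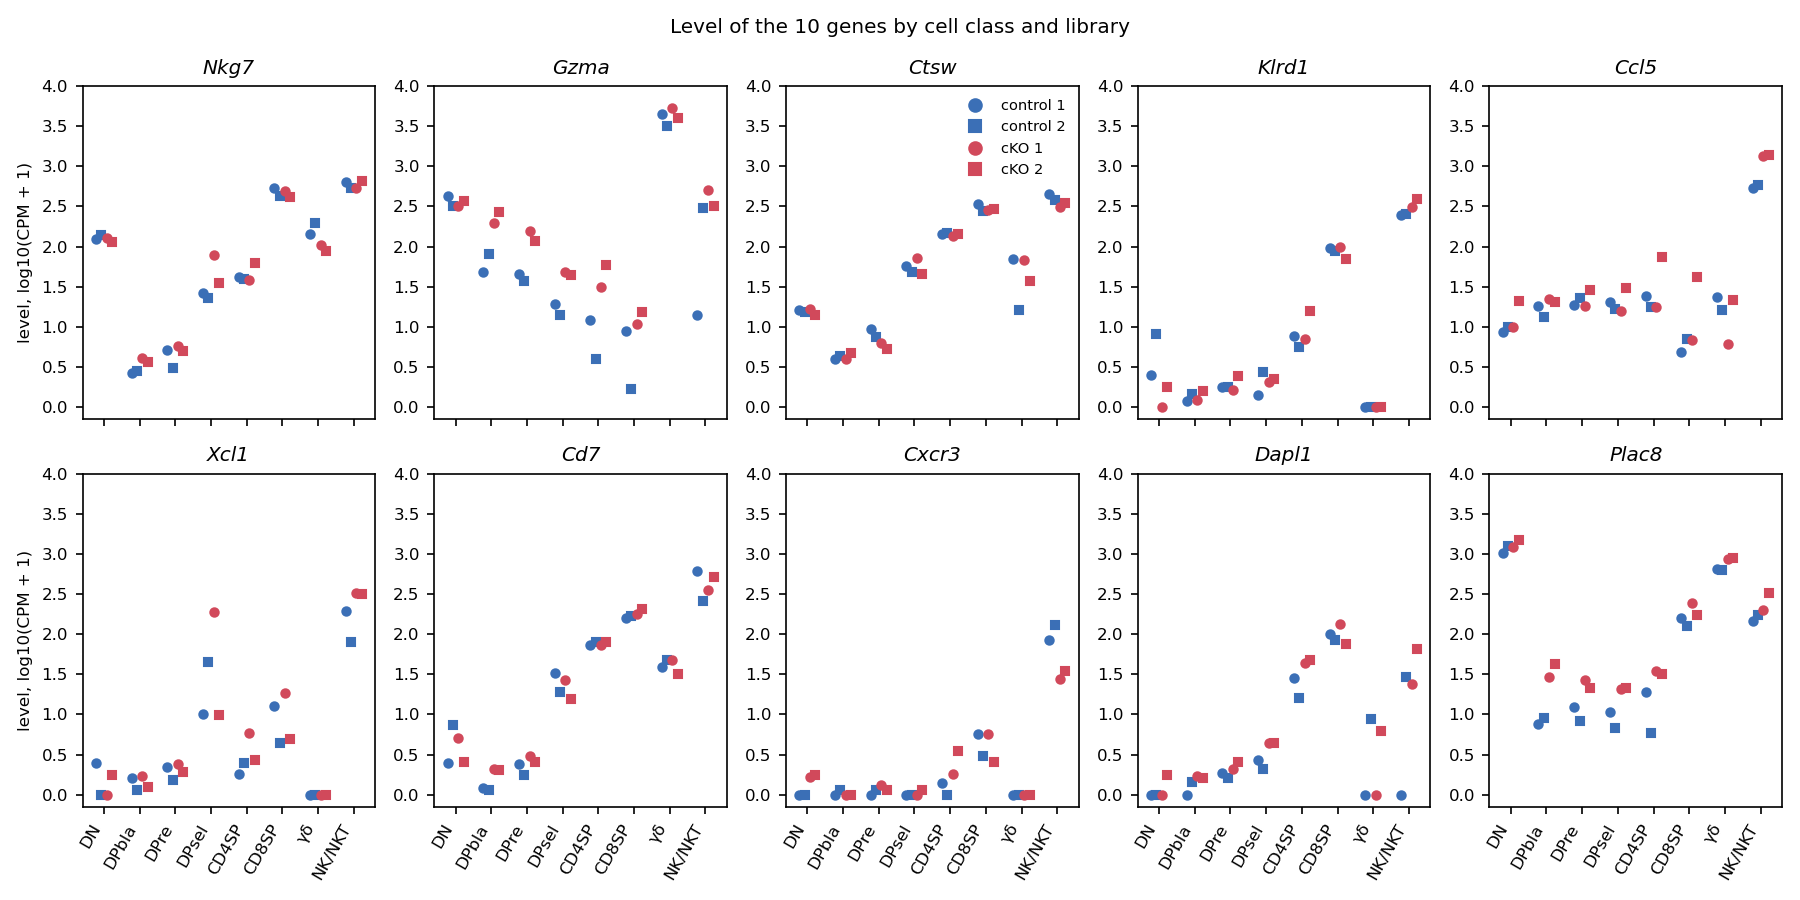
Level of the 10 genes by class and library, as log10(CPM + 1); circles are replicate 1 and squares replicate 2, blue control and red cKO. Ctsw, Cd7, Dapl1 and Klrd1 stand higher in CD8SP than in CD4SP in every library. Among the classes shown Gzma and Plac8 stand highest in γδ or DN cells, and the red points of both lie above the blue ones in DPbla, DPre and DPsel.

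In the 4 classes the members divided by where they were highest. Nkg7, Ctsw, Klrd1, Cd7, Cxcr3 and Dapl1 had their highest mean level in CD8SP, Gzma and Plac8 in γδ, Ccl5 in CD4SP and Xcl1 in DPsel. The place of Ccl5 rested on 1 CD4SP cell of cKO 2 with 128 of 176 UMIs, without which that library stood at 20.2 CPM. With clustering at resolution 1.5 Ccl5 was highest in DPsel and Xcl1 in CD8SP. An order of classes can be read only in part: of the 7 steps between neighbouring classes (DN, the 3 DP classes, CD4SP, CD8SP, γδ and NK/NKT), 3 steps for Nkg7 and Plac8 and 4 steps for Ctsw, Klrd1 and Cd7 had no overlap between libraries, and for each of the other 5 members 1 step did. These levels are a description, since classes were cut from the same cells.

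Nkg7 was the most abundant member in CD8SP, at 537, 423, 488 and 416 CPM. The 4 libraries overlapped by genotype there. NK/NKT cells stood at 630, 531, 534 and 647, which CD8SP did not separate from, and γδ cells at 144, 193, 104 and 88.0. CD4SP had 40.6, 38.7, 37.0 and 61.6, so that CD8SP cells carried far more Nkg7 than their CD4 counterparts in every library. The level came from most CD8SP cells: 104 of 129, 114 of 153, 168 of 209 and 138 of 180 held at least 1 UMI, with a median of 5, 3, 4 and 2 UMIs per cell.

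Ctsw and Cd7 followed Nkg7 at lower levels and reached further into CD4SP. Ctsw stood at 340, 279, 285 and 290 CPM in CD8SP, at 143, 145, 136 and 141 in CD4SP and at 55.9, 46.7, 71.2 and 45.1 in DPsel. Cd7 stood at 158, 167, 175 and 205 in CD8SP and at 73.2, 77.8, 71.5 and 78.0 in CD4SP. For both genes DPsel, CD4SP and CD8SP stood in this order, without overlap of their libraries. Over 40 sums (10 classes by 4 libraries, 8222 genes) the pattern most like Ctsw was that of Cd7, with a Pearson correlation of 0.95, and Ms4a4b came second for both, at 0.93 and 0.94. The sums share libraries and depth, so these correlations only describe them.

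Klrd1 was highest in CD8SP among the αβ classes, with 93.9, 86.1, 98.4 and 69.8 CPM against 4.55 to 14.8 in CD4SP. A minority of CD8SP cells carried it: 38.0%, 31.4%, 28.2% and 21.7% held a UMI. NK/NKT cells had 244, 252, 310 and 396, and plasmacytoid dendritic cells, 46 in all, had 263, 214, 229 and 202. Klrd1 was thus also found outside lymphocyte classes. Dapl1 had 98.6, 82.7, 133 and 73.7 in CD8SP and 27.2, 15.2, 42.6 and 46.4 in CD4SP, without overlap between the classes. An unnamed cluster with markers of thymic epithelium and neutrophils held more Dapl1 than either, at 149, 27.9, 289 and 267, although in control 2 it stood below CD8SP.

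γδ cells held Gzma, Plac8 and Nkg7, and several other members were not found in them. Gzma stood at 4474, 3182, 5361 and 3951 CPM, and 69 of the 82 cells (84.1%) held a UMI of it. The median γδ cell had 28, 5, 14 and 13 Gzma UMIs, and the highest had 126, 116, 210 and 116, so the level was uneven between cells of 1 library. Plac8 stood at 652, 632, 868 and 896, with a UMI in 55 cells (67.1%), and Nkg7 had one in 41 (50.0%). Klrd1, Xcl1 and Cxcr3 gave 0 UMIs in the 82 cells of this class, which allows a share of cells with a UMI of up to 3.66%. The γδ marker list also summed to 1311, 1095, 662 and 920 CPM in NK/NKT cells, which held Klrd1, Xcl1 and Cxcr3. These 0 counts therefore describe the class and not every cell with γδ transcripts. DN cells resembled the γδ class in these genes, with less Gzma (318 to 423 CPM), more Plac8 (1018 to 1504), an overlapping level of Nkg7 (114 to 140) and at most 8 UMIs of Klrd1, Xcl1 or Cxcr3 in a library. The gene closest to Gzma over the 40 sums was Trdc (0.87), the constant region of the δ chain, followed by Trgv2 (0.82).

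Ccl5 and Cxcr3 were low throughout the 4 classes. Outside 2 sums of cKO 2 in which 1 cell held most UMIs, Ccl5 stayed between 3.91 and 29.9 CPM. Its main sources in these thymi lay elsewhere: NK/NKT cells had 537, 585, 1343 and 1386, and an unnamed cluster with the antigen-presentation genes H2-Aa and Cd74 had 7445, 6549, 4830 and 3734. Cxcr3 had at most 4.73 CPM in CD8SP, or 2 to 9 UMIs per library, and none of the 4 classes had enough counts of it to be tested.

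Members were seen together in CD8SP cells more often than in CD4SP cells. With every cell thinned to 2000 UMIs, 52.7%, 47.1%, 58.9% and 53.4% of CD8SP cells held at least 2 of the 10 genes, against 8.82%, 5.72%, 9.89% and 11.4% of CD4SP cells and 2.63%, 2.05%, 6.17% and 4.53% of DPsel cells. NK/NKT cells had 64.7%, 63.6%, 48.6% and 71.7%, above the CD8SP share of the same library except in cKO 1. Within CD8SP, Ctsw was found in 54.8%, 55.1%, 49.2% and 53.6% of cells with Nkg7 and in 35.7%, 33.3%, 42.5% and 46.8% of those without, and Plac8 likewise more often in all 4 libraries. Klrd1, Cd7 and Dapl1 were not: Klrd1 was found in 8.33% against 12.8% and Cd7 in 27.4% against 29.8% in cKO 2, and Dapl1 in 12.5% against 17.2% in cKO 1. In NK/NKT cells, of which 13 to 31 held Nkg7, Klrd1 was found in 38.9%, 54.5%, 46.2% and 54.8% of Nkg7-positive cells against 6.25%, 4.55%, 4.55% and 9.09% of the others.

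By genotype, the clearest differences in DPsel were in Gzma and Plac8. Gzma stood at 18.5 and 13.2 CPM in control and at 47.5 and 43.9 in cKO, and both cKO libraries lay above both controls (log2 fold change 1.56, SE 0.172, adjusted p = 0.00139, edgeR). Plac8 stood at 9.67 and 5.78 against 19.9 and 20.3 (1.42, SE 0.233, adjusted p = 0.0375). These were the 2 members called of 8 tested, both higher in cKO, where 0.121% of all 10748 genes tested were called. The median estimate over the members tested was 1.27 in DPsel, 0.96 in CD4SP, 0.19 in CD8SP and 0.28 in γδ, and over all genes between -0.01 and 0.00; that in DPsel lies between Nkg7 and Dapl1, neither of which was called. The call of Gzma was kept under each of 14 alternatives, DESeq2 among them. For Plac8 the call was lost at a mitochondrial limit of 5% (adjusted p = 0.0936) and without doublet removal (adjusted p = 0.0675).

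**Figure D2:**
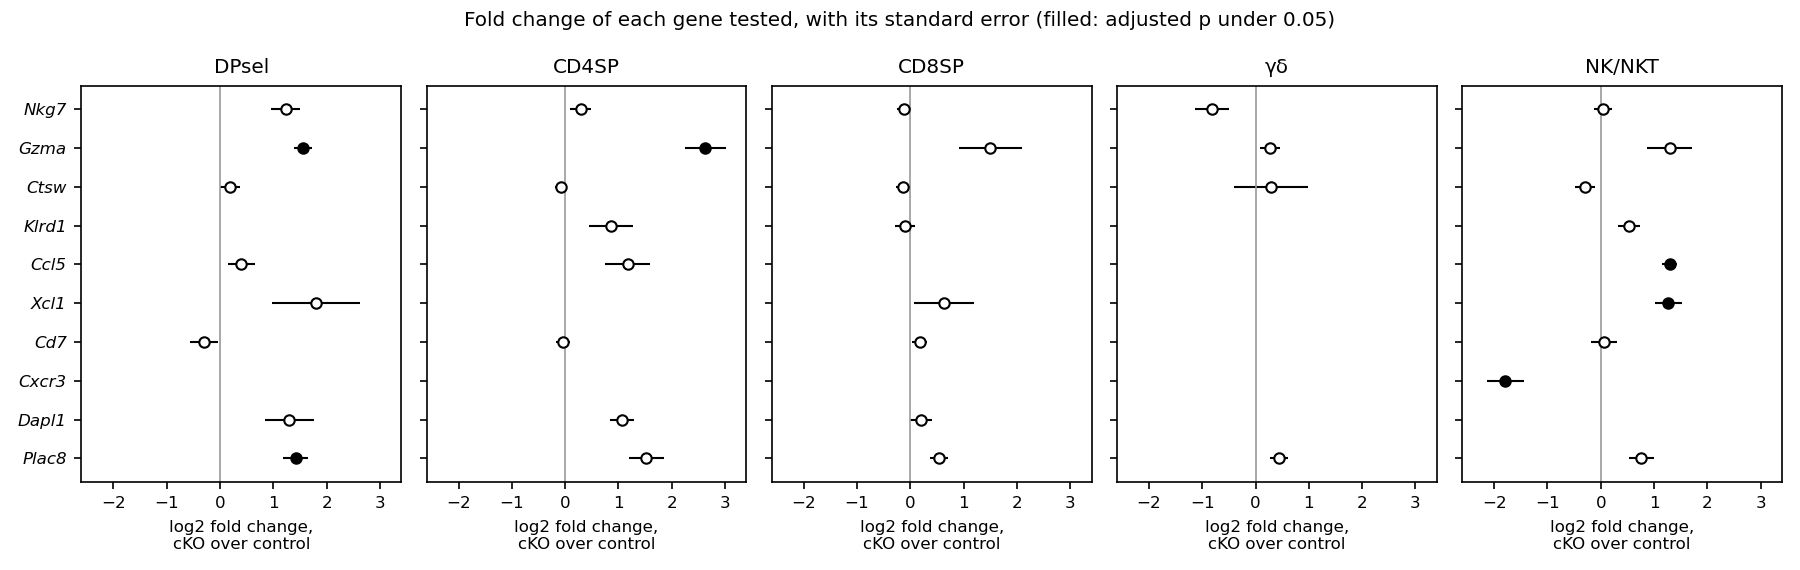
Log2 fold change of cKO over control for each member tested, by class; bars are the standard error and filled points have an adjusted p under 0.05. Filled points are Gzma and Plac8 in DPsel, Gzma in CD4SP, and Ccl5, Xcl1 and Cxcr3 in NK/NKT, while the estimates in CD8SP and γδ are open.

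Both genes were spread thinly over DPsel cells. After thinning, 3.28% and 2.19% of control and 7.45% and 7.75% of cKO cells held a UMI of Gzma, and 1.31% and 1.23% against 2.77% and 3.82% one of Plac8. Few cells held 5 or more Gzma UMIs, 2 and 0 in control and 6 and 7 in cKO (0.211% and 0% against 0.588% and 0.357%). B cells, which should not express Gzma, held a UMI in 0 of 26 and 0 of 27 thinned control cells, which allows up to 11.5% and 11.1%, and in 10.0% and 8.33% of 20 and 36 cKO cells, at medians of 2884 to 5356 UMIs per cell before thinning, against 2943 to 4446 in DPsel. In mononuclear phagocytes (MPS) the shares were 6.25% and 0% in control and 7.89% and 12.9% in cKO. The DPsel shares of Gzma in cKO lay below those in B cells of the same libraries, so expression in DPsel cells is not read from these shares. The exact intervals of the B cell shares were wide, from 1.23% to 31.7% in cKO 1 and from 1.75% to 22.5% in cKO 2.

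The γδ marker list moved the same way. Its 10 genes summed to 40.0 and 33.7 CPM in control and to 57.4 and 50.9 in cKO DPsel, with Trdv4 at 0, and to 34.7 and 24.7 against 54.4 and 43.0 in CD4SP and 22.7 and 23.2 against 48.4 and 47.6 in CD8SP. In γδ cells themselves the sums were 6892, 5524, 4291 and 4303. The 6 NK markers summed to 11.4 and 8.51 against 16.2 and 20.5 in DPsel and to 14.2 and 9.11 against 14.2 and 40.1 in CD4SP. Most of the DPsel sum came from Fcer1g (4.94 and 2.89 against 7.56 and 8.77) and Tyrobp (5.59 and 4.17 against 7.34 and 10.5), with Ncr1 at 0. MPS cells carried Tyrobp too, at 1125 to 1451, and Fcer1g was a leading gene of their cluster. In CD4SP of cKO 2, 1 cell held 24 of 48 Tyrobp UMIs and all 7 of Ncr1. The part of γδ or NK transcripts and of free RNA in the Gzma and Plac8 differences was not tested.

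**Figure D3:**
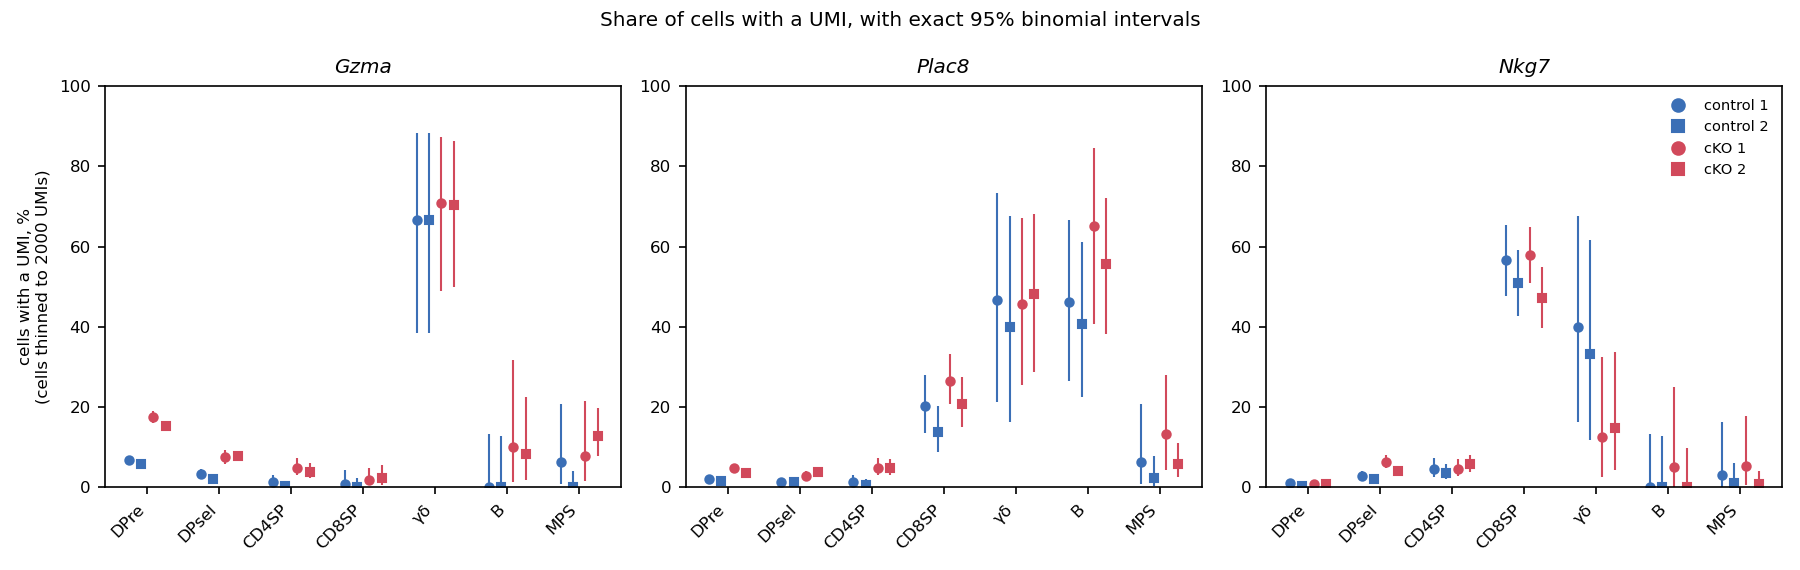
Share of cells with a UMI of Gzma, Plac8 and Nkg7 after thinning to 2000 UMIs per cell, by class and library; bars are exact 95% binomial intervals and cover counting error only. Gzma in cKO reaches 7.89% to 12.9% in B and MPS cells, as high as in DPsel, whereas Nkg7 in CD8SP stands at 47.2% to 58.0%.

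Nkg7 and Xcl1 in DPsel turned on 1 library. Nkg7 stood at 25.6 and 21.7 CPM in control and 76.6 and 34.5 in cKO, without overlap, and was not called (1.23, SE 0.276, adjusted p = 0.120); without cKO 1 the estimate was 0.55. Xcl1 stood at 9.24, 44.3, 189 and 8.93, with both cKO libraries outside the range of the controls on opposite sides (1.80, SE 0.818, adjusted p = 0.562), and without cKO 1 its estimate reversed to -1.64. Both genes were called in DPsel without control 1, without control 2 and without cKO 2, which raised the members called from 2 to 4 while the genes called rose from 13 to between 58 and 82. Dapl1 was at 1.72, 1.12, 3.45 and 3.39 (1.30, SE 0.456, adjusted p = 0.412), from 7 to 22 UMIs per library. Ctsw, Ccl5 and Cd7 had estimates of 0.18, 0.40 and -0.30, all with overlapping genotypes.

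The 3 DPsel clusters placed these genes in different cells. Cluster 3, led by Egr1 and Cd5, had 2.32 to 8.01 CPM of Nkg7. Cluster 5, led by Itm2a and Il7r, had 41.8 and 30.6 in control and 80.0 and 69.5 in cKO. Zbtb7b, the factor of the CD4 lineage, and Cd40lg were also among the leading genes of cluster 5. The CD4SP marker list scored next highest in it, after that of DPsel. The Nkg7 and Ctsw levels of DPsel thus came in part from a cluster with markers of the CD4 lineage. Nearly all Xcl1 lay in cluster 15, which is led by the activation genes Nr4a1 and Tnfrsf9 beside Xcl1 itself, at 46.4, 286, 1014 and 53.0. There Nkg7 was also highest in cKO 1, at 198 against 36.3, 62.0 and 47.9. Cells with 5 or more Xcl1 UMIs numbered 1, 6, 17 and 4, so the level of the class rested on few cells. Gzma ran the other way, with 35.2 and 22.5 in control and 96.2 and 74.4 in cKO in cluster 3 but at most 15 in cluster 15, where the genotypes overlapped.

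**Figure D4:**
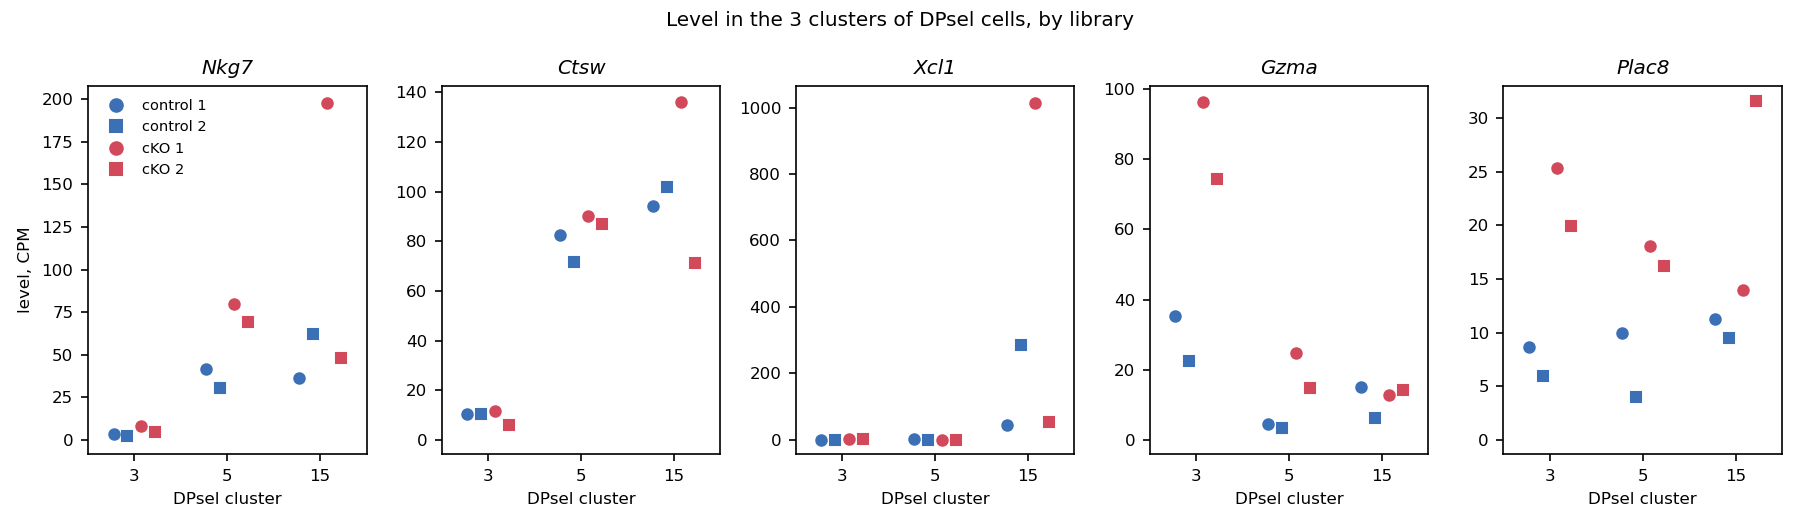
Level in CPM of 5 members in the 3 DPsel clusters, by library; each panel has its own axis, which includes 0. Nkg7 and Ctsw lie low in cluster 3, Xcl1 is confined almost wholly to cluster 15 and reaches 1014 in cKO 1, and Gzma is highest in cluster 3 of the cKO libraries.

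In CD4SP, Gzma was higher in cKO and was the 1 member called of 8 tested, where 0.192% of all 9388 genes were called. It stood at 11.3 and 3.04 CPM in control and 30.1 and 58.6 in cKO (2.63, SE 0.379, adjusted p = 0.0153). With 1 library left out the estimate ran from 1.96 (without control 2) to 3.79 (without control 1), and it was called each time. Of the 139 UMIs in cKO 2, 97 came from 1 cell. That cell also held 128 of the 176 Ccl5 UMIs of its library's CD4SP cells, 19 of Nkg7, 11 of Klrd1, 24 of Tyrobp and 7 of Ncr1, and 0 of Cd4, whereas Ncr1 was at 0 in CD4SP of the other 3 libraries. Without the highest cell of each library, chosen after the data were seen, Gzma stood at 6.27 and 2.28 against 24.4 and 17.7 and was still called (2.30, adjusted p = 0.0157). Thinned shares of cells with Gzma were 1.34% and 0.229% in control and 4.83% and 3.93% in cKO, below the B cell shares of the cKO libraries, with their wide intervals. DESeq2 called none of the members in CD4SP, where it gave Gzma, Plac8 and Dapl1 no adjusted p.

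Plac8 and Dapl1 in CD4SP did not overlap between genotypes and missed the threshold. Plac8 stood at 18.0 and 4.93 against 34.1 and 31.2 (1.52, SE 0.326, adjusted p = 0.0828), and it was called without the highest cells (1.79, adjusted p = 0.0212). Its estimate ran from 0.86 without control 2 to 2.67 without control 1. Dapl1 stood at 27.2 and 15.2 against 42.6 and 46.4 (1.06, SE 0.224, adjusted p = 0.0737). The number of members called rose to 4 without control 1 or cKO 1, to 3 without cKO 2 and to 2 without control 2, while the genes called rose from 18 to between 41 and 83. Thinned shares of Plac8 were 1.34% and 0.686% in control and 4.83% and 4.72% in cKO, below the share in MPS cells of the same library in each case (6.25%, 2.22%, 13.2% and 5.76% of 32, 90, 38 and 139 thinned cells). These MPS shares had exact intervals as wide as 4.41% to 28.1% in cKO 1, and thinning had left out 153, 97, 380 and 196 shallower MPS cells. In B cells 40.7% to 65.0% held a UMI of Plac8, and plasmacytoid dendritic cells had 2780, 2530, 3756 and 2387 CPM of it. In MPS of control 1, 1 cell held 98 of the 124 Plac8 UMIs. The MPS share is therefore no measure of background for Plac8.

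Ccl5 in CD4SP showed how far 1 cell can carry a sum. Its levels were 23.0, 16.7, 16.7 and 74.2 CPM (1.17, SE 0.423, adjusted p = 0.474), and without cKO 2 the estimate was -0.26. Ctsw, Cd7 and Nkg7, the more abundant members there, had estimates of -0.08, -0.04 and 0.29, with adjusted p-values of 0.781 to 0.969. Klrd1 stood at 6.69, 4.55, 6.09 and 14.8 (0.86, SE 0.417, adjusted p = 0.626).

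CD8SP, where 6 members were highest, gave no call among 8 tested, where 0.0594% of all 8411 genes were called. At an unadjusted p under 0.05 there were 2 members and 563 genes, and DESeq2 called 0 members. Nkg7, Ctsw, Klrd1 and Cd7 had estimates within 0.2 of 0: -0.11 (SE 0.131) for Nkg7, -0.14 (SE 0.130) for Ctsw, -0.10 (SE 0.180) for Klrd1 and 0.18 (SE 0.140) for Cd7. Dapl1 and Xcl1 had estimates of 0.20 (SE 0.209) and 0.63 (SE 0.564), with overlapping genotypes. Plac8 stood at 156 and 126 against 241 and 171 (0.54, SE 0.167, adjusted p = 0.461), without overlap, and Gzma at 7.82 and 0.683 against 9.99 and 14.3 (1.5, SE 0.587, adjusted p = 0.655), from 1 to 19 UMIs per library. The Gzma estimate ran from 0.56 without control 2 to 3.93 without control 1. Plac8 was found in 13.7% to 26.6% of thinned CD8SP cells, above the MPS share of the same library in each case, and Gzma in at most 2.25%. Leaving out any 1 of the 4 libraries gave 1 call, but of different members: Gzma without control 1, Plac8 without cKO 2 and Ccl5 without control 2 or cKO 1. The genes called rose from 5 to between 20 and 107. In the sum of cKO 2, 44 of 52 Ccl5 UMIs lay in 1 cell.

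γδ cells, with at most 28 per library, allowed 4 members to be tested and gave no call. Of all 2730 genes tested there 0% were called, by edgeR and by DESeq2 alike, and 173 genes, 2 of them members, had an unadjusted p under 0.05. Gzma had an estimate of 0.27 (SE 0.180, adjusted p = 0.846) and Plac8 one of 0.44 (SE 0.165, adjusted p = 0.739), the latter without overlap. Nkg7 went the other way, at 144 and 193 CPM in control and 104 and 88.0 in cKO (-0.82, SE 0.314, adjusted p = 0.739), from 17 to 25 UMIs per library. Its thinned shares were 40.0% and 33.3% against 12.5% and 14.8%, with exact intervals that overlapped.

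Over the 4 classes, the genotypes did not overlap in the thinned share of cells for 3 of 7 members at a mean share of at least 1% in DPsel (38.8% of all such genes), for 6 of 7 in CD4SP (35.0%), for 4 of 8 in CD8SP (34.8%) and for 3 of 5 in γδ (27.8%). In DPsel these were Nkg7, Gzma and Plac8, all higher in cKO, although for Nkg7 the unthinned shares overlapped (5.59% and 3.78% against 10.2% and 5.56%). In CD4SP Nkg7, Gzma, Ctsw, Dapl1 and Plac8 were higher and Cd7 lower. For Ctsw this held only after thinning: its level and its unthinned share (46.4% and 44.0% against 42.4% and 39.1%) were lower in cKO, also without overlap. In 2 against 2 libraries the exact permutation test cannot go below p = 0.333, so no share was tested further.

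The genotype effect was then compared between classes in 1 fit with the library as a block, over 6 pairs of classes. Among all pairs and genes 0.0109% of differences were called, and 3 of them were members. The effect on Nkg7 was lower in CD8SP than in DPsel by 1.29 on the log2 scale (difference -1.29, SE 0.216, adjusted p = 0.00204; 0.0186% of genes called in this pair). The effect on Gzma was lower in γδ cells than in DPsel (difference -1.19, SE 0.220, adjusted p = 0.0185; 0.0279% of genes called) and than in CD4SP (difference -2.28, SE 0.331, adjusted p = 7.43e-05; 0.00931% of genes called). Each call was lost without 1 library: the Nkg7 difference was -0.80 without cKO 1 (adjusted p = 0.262), the Gzma difference in γδ minus CD4SP was -1.5 without cKO 2 (adjusted p = 0.248), and that in γδ minus DPsel was still -1.01 without cKO 2 (adjusted p = 0.165). In CD4SP minus DPsel, 0.00931% of genes and no member were called, and in CD8SP minus CD4SP and γδ minus CD8SP 0% of genes were.

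Gzma and Plac8 also differed in the DP stages before selection, with lower adjusted p-values than in DPsel. In DPbla Gzma stood at 47.6 and 80.4 against 197 and 269 CPM (1.89, SE 0.202, adjusted p = 0.000592), and Plac8 at 6.59 and 7.94 against 28.1 and 42.1 (2.31, SE 0.224, adjusted p = 0.000327). These were the 2 members called of 5, where 2.21% of genes were called. In DPre Gzma stood at 44.3 and 36.5 against 156 and 117 (1.80, SE 0.148, adjusted p = 8.39e-05), and Plac8 at 11.4 and 7.28 against 25.5 and 20.6 (1.36, SE 0.203, adjusted p = 0.00670), 2 of 8 members where 1.59% were called. With the cells of extreme UMI totals kept, the DPbla estimates were 0.85 for Gzma and 1.19 for Plac8, both still called. Plac8 in DPre lost its call without cKO 1 (1.19, adjusted p = 0.0650). In DN cells neither was called, with Gzma at 423, 318, 318 and 373 and Plac8 at 1018, 1257, 1223 and 1504; 0 of 5 members were called there by edgeR or DESeq2 and 1 had an unadjusted p under 0.05, where 0.0227% of genes were called. The γδ marker list summed to 1519 to 2001 in DN cells, to 229 and 219 against 194 and 209 in DPbla and to 55.7 and 39.8 against 68.8 and 51.7 in DPre. The DPbla sum was mostly Trdc (217 and 204 against 167 and 180). Other list genes moved the other way in DPbla, Tcrg-C1 at 4.67 and 4.89 against 9.47 and 9.83 and Sox13 at 0.425 and 0.611 against 1.68 and 1.97, from few UMIs. Both were also higher in both cKO libraries in DPre. The part of γδ transcripts in these differences was not tested.

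A larger share of cKO than of control cells of the early DP stages held several Gzma UMIs. Cells with 5 or more Gzma UMIs numbered 2 and 21 in control and 97 and 182 in cKO DPbla (0.394% and 2.87% against 11.6% and 12.8% of cells). In DPre they numbered 10 and 3 against 55 and 42 (0.349% and 0.0651% against 1.77% and 0.699%). The thinned share in DPre was 6.81% and 5.80% in control and 17.6% and 15.2% in cKO, above the B cell shares of the same cKO libraries but within their exact intervals. In DPbla the cluster led by the replication genes Cdc6 and E2f1 had the highest level, at 82.1 and 162 against 294 and 420. From DN through DPbla and DPre to DPsel the level was lower at each later stage in every library. CD8SP stood below DPsel in every library, and CD4SP did so except in cKO 2, where the single cell described above lay.

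NK/NKT cells gave a different set of calls, added to the comparisons after the levels had been seen. Ccl5 was higher in cKO (537 and 585 against 1343 and 1386 CPM, 1.29, SE 0.141, adjusted p = 3.15e-06), as was Xcl1 (196 and 78.0 against 322 and 316, 1.27, SE 0.261, adjusted p = 0.0181). Cxcr3 was lower (83.6 and 130 against 26.5 and 33.8, -1.79, SE 0.350, adjusted p = 0.0103). These were 3 of 9 members tested, where 0.585% of genes were called. DESeq2 called Ccl5 alone, and without control 2 the calls of Xcl1 (0.73, adjusted p = 0.272) and Cxcr3 (-1.39, adjusted p = 0.254) were lost. That of Xcl1 was also lost without each library's highest cell (1.13, adjusted p = 0.0626) and without doublet removal (adjusted p = 0.0791), and that of Cxcr3 with extreme UMI totals kept (-1.28, adjusted p = 0.0577). Gzma stood at 12.9, 302, 503 and 321 and was not called (1.29, adjusted p = 0.332), and Nkg7, Ctsw and Cd7 had estimates of 0.05, -0.30 and 0.07. Marker levels of the class differed too: Cd3e stood at 906 and 655 against 492 and 485, Klrb1c at 119 and 130 against 75.7 and 58.0, Ncr1 at 6.43 and 7.80 against 11.4 and 41.1, and 6 NK markers, Klrb1c among them, summed to 411 and 393 against 927 and 647. In cKO most of this sum came from Fcer1g (116 and 159 against 435 and 302) and Tyrobp (48.2 and 33.8 against 140 and 138), which MPS cells carried too. The NKT list summed to 636 and 744 against 337 and 444, and the γδ list to 1311 and 1095 against 662 and 920. Fewer T cells among more NK cells and a change within either type cannot be told apart in these sums.

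Other genes of the program were read from 3 lists. Of 14 further effectors, 8 were tested in DPsel, 7 in CD4SP, 5 in CD8SP and 2 in γδ, and none was called there by edgeR. The most abundant, Srgn, the proteoglycan core of the granules, had 146 to 166 CPM in CD4SP and 447 to 720 in γδ cells, and Lamp1, a lysosomal membrane protein, 83.6 to 98.6 in CD8SP. The chemokine gene Ccl4 was called in DPre alone, at 0.219 and 0.392 against 1.39 and 1.98 (2.43, SE 0.537, adjusted p = 0.0462), from few UMIs.

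Of 16 NK-type receptors and adaptors, 7 were tested in DPsel and in CD4SP, 5 in CD8SP and 1 in γδ, with no call. Hcst, the adaptor of NKG2D, had 215 to 264 CPM in CD8SP and 113 to 136 in DPsel, and the adhesion receptor Cd226 had 105 to 118 and 57.7 to 67.1. Fcer1g, a signalling adaptor, was higher in cKO in DPre (4.71 and 4.31 against 7.60 and 10.5, 1.06, adjusted p = 0.0474) and in NK/NKT cells (116 and 159 against 435 and 302, 1.39, adjusted p = 0.00200), and Tyrobp, the DAP12 adaptor of NK cells, in NK/NKT cells (48.2 and 33.8 against 140 and 138, 1.78, adjusted p = 0.00248). Phagocytes express Fcer1g too, as a leading gene of the MPS cluster, and the 8 MPS markers summed to 247 and 240 against 259 and 263 in DPre and to 190 and 153 against 288 and 258 in NK/NKT cells. Their part in these differences was not tested.

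Of 10 transcription factors of effector and innate-like T cells, Runx3 and Ikzf2 were called before selection (2 of 4 tested in DPbla and 2 of 5 in DPre, against the 2.21% and 1.59% of all genes), and none of the 5 tested in DPsel, 4 in CD4SP, 5 in CD8SP and 2 in γδ was. Runx3, which drives the CD8 and cytotoxic program, stood at 9.35 and 12.7 against 20.9 and 23.3 CPM in DPbla (1.03, SE 0.186, adjusted p = 0.0136) and at 10.1 and 8.69 against 18.8 and 18.0 in DPre (1.02, SE 0.164, adjusted p = 0.00990). In DPsel it stood at 65.4 and 61.6 against 111 and 86.6, without overlap (0.64, SE 0.138, adjusted p = 0.101). Ikzf2, the Helios gene, stood at 92.0 in both controls against 149 and 167 in DPbla (0.83, adjusted p = 0.00362) and at 88.8 and 81.8 against 163 and 169 in DPre (SE 0.0983, adjusted p = 0.000498). In CD8SP, Runx3 stood at 244, 221, 260 and 245, with overlap.

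For the remaining members the genes of most similar pattern over the 40 sums were Arhgap9 and Sema4a for Nkg7 (both 0.87), Tpst2 and Glipr2 for Klrd1 (0.85 and 0.81), Klrk1 and Klra1 for Ccl5 (0.88 and 0.79), Trpm1 and Tnfrsf9 for Xcl1 (0.80 and 0.79), Ly6c2 and AW112010 for Cxcr3 (0.85 and 0.77), Bin2 and Gm2682 for Dapl1 (0.83 and 0.80) and Coro2a and Rpl10 for Plac8 (0.78 and 0.77). Plac8 had its closest member in Nkg7, at 0.45, and Gzma in Plac8, at 0.41, whereas each of the other 8 members had another at 0.70 or above.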

How the data were processed

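The authors aligned reads to GRCm38 (mm10) and counted them with cellranger count 6.1.1 at default parameters, and deposited raw UMI counts per gene and cell, 1 filtered matrix per library, without normalization or pooling. Kept cells had at least 200 genes, lay outside the top and bottom 2.5% of UMI totals, had at most 10% mitochondrial UMIs, and were not among the 5% with the highest Scrublet score. Clustering (scanpy 1.11.5, leidenalg 0.10.2) used 3000 variable genes less members and effector lists, 30 principal components, 20 neighbours and resolution 1, and gave 25 clusters. A cluster took the marker list of highest score or, among lists close to it, the one with most genes among the cluster's leading genes. Clusters with markers of non-T cells beside those of another type, shallow clusters and 1 of under 20 cells stayed unnamed: 443, 537, 955 and 1098 cells of control 1, control 2, cKO 1 and cKO 2.

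UMI counts were summed per library and class with at least 10 cells per library and tested with edgeR 4.0.16 (R 4.3.3; TMM, filterByExpr, genotype alone), with DESeq2 1.42.0 as an alternative. The pipeline was tested on simulated data. The differences between classes used 1 fit with library, class and class by genotype. Cells were thinned to 2000 UMIs for shares, which left out up to 282 of 1959 DPsel, 36 of 545 CD4SP, 2075 of 6008 DPre and 380 of 418 MPS cells of a library; intervals are exact binomial at 95%, and a count of 0 allows up to 3 counts. All members are named in each class. Of each list the called genes and the 2 most abundant over the 4 classes are named, and for each member the 2 genes of highest Pearson correlation of log2(CPM + 1), among genes at a mean of 10 CPM or more. Promoters come from RefSeq (GRCm38.p6) and gene positions from GENCODE on GRCm38. Members and lists were chosen with earlier results of these data known.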

Additional observations from a re-analysis of the deposited data

Results flagged for a closer look

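Tests of the difference itself set 3 genotype effects apart between classes. For Nkg7 the effect in CD8SP minus that in DPsel was -1.29 on the log2 scale, for Gzma the effect in γδ cells minus that in DPsel was -1.19, and for Gzma the effect in γδ cells minus that in CD4SP was -2.28. Each call was lost when 1 library was left out: that of Nkg7 without cKO 1 (-0.80, adjusted p = 0.262) and those of Gzma without cKO 2 (γδ minus DPsel -1.01, adjusted p = 0.165, and γδ minus CD4SP -1.5, adjusted p = 0.248). In the CD4SP cells of cKO 2, which enter the last of these, 97 of 139 Gzma UMIs came from 1 cell. In each the smaller effect belonged to the class in which the gene was most abundant of the 4.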

How the results depend on the processing

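The calls of Gzma in DPsel, DPbla and DPre and of Plac8 in DPbla were kept under each of 14 alternatives, although with extreme UMI totals kept the DPbla estimates were 0.85 for Gzma and 1.19 for Plac8, and that of Gzma in CD4SP under 12 of the 13 that gave an adjusted p, the exception being all variable genes in the clustering (1.63, adjusted p = 0.0837); DESeq2 gave none. Members called in DPsel, 2, became 4 with no filter on low counts and 1 at a mitochondrial limit of 5% or without doublet removal, and 2 to 4 with 1 library left out; all genes called went from 13 to 150, 34, 9 and 58 to 82. In CD4SP, 1 became 0 with DESeq2, 2 at the 5% limit, 3 at resolution 1.5, 2 without the highest cells and 2 to 4 with 1 library left out (genes 18 to 10, 3, 26, 19 and 41 to 83). In CD8SP, 0 became 1 with no filter (Ccl5), at the 5% limit (Plac8), without doublet removal (Gzma) and with any library left out (genes 5 to 60, 6, 26 and 20 to 107). In NK/NKT, 3 became 1 with DESeq2 (genes 29 to 4). The differences called between classes, 3, became 3 to 5 with 1 library left out. All variable genes in the clustering merged NK/NKT into γδ cells, so that 5 of 10 members kept their highest class, and 8 of 10 did at resolution 1.5. Estimates reversed for Ccl5 in CD4SP with all variable genes (-0.05) and at resolution 1.5 (-0.33), and over the libraries left out it ran from -0.26 to 1.88; that of Xcl1 in DPsel ran from -1.64 to 3.4 and that of Nkg7 in CD8SP from -0.27 to 0.07. The causes were not tested. A fit with 1 library in a group assumes that it varies like the other group. At the 5% limit DN, γδ and NK/NKT had under 10 cells in a library and were not fitted, and the count before selection then covers DPbla and DPre.

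The mice were littermates studied in pairs, but no label says that a replicate number marks a pair, so pairing was not established; the shares of cells over the mitochondrial limit were alike by number (48.3% and 46.1%, 20.6% and 23.1%). Deviations of same-numbered libraries correlated at 0.03 (γδ) to 0.35 (DPbla). With the replicate block the members called became 4 in DPsel (adding Nkg7, 1.15, and Xcl1, 1.10; genes called from 13 to 325) and 4 in CD4SP (adding Plac8, 1.54, Dapl1, 1.07, and Ccl5, 1.07; genes from 18 to 98), stayed at 0 in CD8SP (genes 5 to 68) and γδ (0) and 3 in NK/NKT (29 to 48), and went from 4 to 6 before selection with Plac8 in DN and Ccl5 in DPbla (genes 2 to 93 in DN, 238 to 1109 in DPbla and 186 to 1070 in DPre).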
